A study of Mus musculus with 6 samples.

Results

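Myc and 40 genes that build ribosomes were followed in tumour-infiltrating CD8+ T cells that carried a guide against Elovl1 or a non-targeting guide. The 41 genes were those on a list of names, picked by symbol from 55471 gene IDs in the tables. No value enters the rule, but the list was drawn up with earlier results of these data known. All 41 were found and all 41 passed the filter on low counts, which left 12546 genes tested.

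The study sequenced RNA of OT-I T cells, CD8+ T cells whose receptor recognises an ovalbumin peptide, taken from pancreatic tumours that grew from KPC_OVA cells, a mouse line made to express ovalbumin, implanted in the pancreas. The sgElovl1 group (3 libraries) held Cas9 knock-in OT-I cells with a lentiviral guide against Elovl1, and the sgNT group (3 libraries) held Cas9 knock-in OT-I cells with a non-targeting guide in the same kind of vector. Both groups carried the CD90.1 marker of the vector, were given to tumour-bearing mice, received anti-PD-1 from the day after transfer, and were sorted from the primary tumour on CD90.1 after 7 days. Elovl1 encodes an elongase of very long-chain saturated fatty acids. Cells of different mice were kept apart as replicates, but the RNA of sgElovl1 replicates 1 and 2 was a pool of 2 tumours each, whereas each other library came from 1. The mice were young adults, and the share of cells edited was not given in the sources used here.

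Ribosomes are made in the nucleolus, where RNA polymerase I transcribes one long precursor of the ribosomal RNAs. Small nucleolar ribonucleoproteins (snoRNPs) modify and help to cut this precursor, and separate sets of assembly factors then build the small and the large subunit. Myc, a transcription factor that T cells induce on activation, binds DNA with Max at the E-box and is a known activator of many of these genes. Growing and dividing CD8+ T cells need many ribosomes, and the output of this pathway falls in resting cells.

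Total expected counts ranged from 21980273 to 26059360 in sgElovl1 and from 24121976 to 26165380 in sgNT libraries. Elovl1 fell to 84.5 ± 9.7 CPM (counts scaled by library size) in sgElovl1 libraries, against 272.4 ± 15.5 CPM in sgNT libraries (SD, n = 3 each, log2 fold change -1.69, SE 0.12, edgeR adjusted p = 8.71e-05). The 9 T cell markers were all detected in every library, and their summed level was 11497 to 13203 CPM in sgElovl1 and 15001 to 15476 CPM in sgNT libraries. Single markers differed in direction, with 8 of the 9 log2 fold changes negative. Trac, Cd8a and Cd8b1 were called lower (-0.55, -0.45 and -0.49), Cd3e was called higher (0.40, edgeR adjusted p = 0.0493), and 5 did not pass. Summed markers of tumour epithelium reached 341.9 CPM in sgElovl1 replicate 3 and 1068 CPM in sgNT replicate 3, against 32.8 and 44.0 CPM in the other sgElovl1 and 45.4 and 53.4 CPM in the other sgNT libraries. The 14 macrophage markers summed to 193 to 469 CPM in sgElovl1 and 146 to 183 CPM in sgNT libraries, and their defining marker Adgre1 had 0.692 to 3.11 CPM in sgElovl1 and was at 0 in all sgNT libraries. The second principal component set replicate 3 of both groups apart. Results that rest on these 2 libraries are given with and without them, and the part of these other cells in any result was not tested. In bulk RNA, fewer cells of a type and less RNA per cell cannot be told apart.

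The E-box, CACGTG, was searched for in promoter windows because it is the binding site of Myc and Max. The windows were those of RefSeq on GRCm38.p6, from 250 bases before to 50 after each start, and 36 of the 41 genes had at least 1. The motif reads the same on both strands. It was found for 10 of these 36 genes (27.8%), against 8.09% of the 27025 genes with a window. This comparison was not matched for base content or level. The 10 genes were Rrn3, Nop2, Pes1, Grwd1, Utp4, Wdr43, Utp20, Ltv1, Tsr1 and Mybbp1a. In Rrn3 and Nop2 the motif lay before the start, and these stretches are given here with the motif in capitals, read 5′ to 3′ on the plus strand, to give its surroundings. In the other 8 it lay within the first 50 transcribed bases. The first bases of the motif stood at -215 and -48 from the Rrn3 start and at -60 from the Nop2 start.
Rrn3, chr16:13780459-13780514: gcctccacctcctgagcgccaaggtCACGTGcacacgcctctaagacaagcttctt
Rrn3, chr16:13780626-13780681: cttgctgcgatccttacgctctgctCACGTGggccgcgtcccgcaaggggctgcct
Nop2, chr6:125131798-125131853: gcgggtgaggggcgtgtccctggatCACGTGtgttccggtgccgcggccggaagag
The median log2 fold change was -0.16 over the 10 genes with the motif and -0.11 over the 26 without it. The sequence match is a description, and occupancy by Myc was not measured.

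Across the whole list the differences between the groups were small. Polr1a rose and Pes1 fell in sgElovl1 cells, and the other 39 genes did not pass the threshold of an adjusted p of 0.05. Of all genes tested, 8.64% were called higher and 5.13% lower, and of the 41 genes 1 was called in each direction (2.44%). The log2 fold changes ran from -0.45 to 0.72, with 27 negative (65.9%, against 50.4% of all genes) and 14 positive values and a median of -0.11, against a median of -0.004 over all genes tested. At an unadjusted p under 0.05 there were 5 higher and 10 lower genes among the 41 (12.2% and 24.4%), against 17.4% and 14.7% of all genes. Library values of the groups did not overlap for 5 genes that were higher and 9 that were lower (12.2% and 22%), against 19.4% and 17.7% of all genes. When any of sgElovl1 replicates 1 and 2 and sgNT replicate 2 was left out of the edgeR fit, 0 of the 41 genes were called, with 2, 2 and 4 higher and 8, 5 and 3 lower at an unadjusted p under 0.05. These fits called 2.15 to 2.95% of all genes higher and 0.323 to 0.623% lower. Without sgNT replicate 1 Polr1a alone was called, in a fit that called 6.07% of all genes higher and 1.34% lower. Without sgNT replicate 3 Polr1a and Grwd1 were called, against 7.08% and 3.29% of all genes. Without sgElovl1 replicate 3, 3 genes were called higher and 6 lower, against 11% and 10.1% of all genes.

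**Figure D1:**
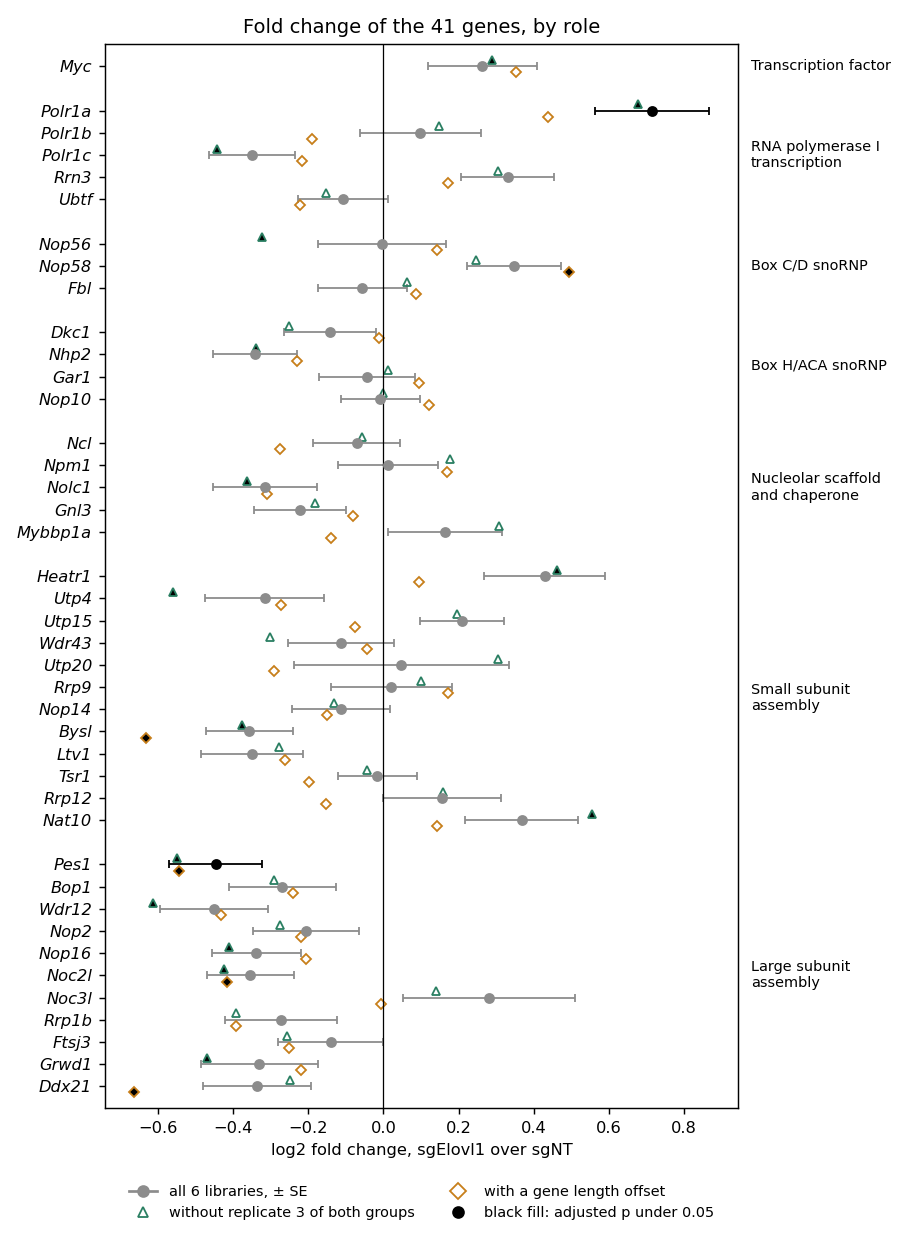
Log2 fold change of sgElovl1 over sgNT (x axis) for each of the 41 genes, in blocks by role (y axis). Circles are the fit on all 6 libraries with bars of 1 SE, triangles the fit on replicates 1 and 2 of both groups, diamonds the fit with a gene length offset, and black fill marks an adjusted p under 0.05; only Polr1a and Pes1 have black circles, and 10 of the 11 large subunit factors lie left of 0.

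By level, in TPM (transcript abundance scaled for gene length and depth), the list spanned a wide range. Npm1 stood highest with a mean of 385.9 TPM over the 6 libraries, followed by Nop56 (296 TPM), Nhp2 (217.3 TPM) and Ncl (166.6 TPM). The ranges of neighbours in this order overlapped: Npm1 had 327.2 to 454.8 TPM, Nop56 217.5 to 375.5 TPM and Nhp2 194.5 to 265.3 TPM. Utp20, a scaffold of small subunit assembly, was lowest at 0.997 TPM, below Noc3l (2.66 TPM), Heatr1 (3.21 TPM), Rrp12 (3.42 TPM) and Polr1a (3.92 TPM). The smallest expected count of any of the genes in a library was 59, for Utp20. Summed over the 41 genes, the level was 2563, 2591 and 2479 TPM in sgElovl1 replicates 1 to 3, against 2434, 2888 and 2356 TPM in sgNT replicates 1 to 3. These sums overlapped, and sgNT replicate 2 was the highest of all 6.

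sgNT replicate 2 stood high for most of the list. This library had the largest total count and the fewest genes with a count (15618), and the part of depth in its levels was not tested. It was the highest sgNT library for 32 of the 41 genes (78%), against 32.8% of all genes tested, and the highest of all 6 libraries for 24. Its median difference from the sgNT mean was 0.15 on the log2 scale over the 41 genes, whereas sgNT replicates 1 and 3 had -0.11 and -0.07. The sgElovl1 libraries had medians of -0.04, -0.09 and -0.18 on the same scale, where the medians over all genes tested were 0 to 0.01. Without sgNT replicate 2 the median log2 fold change of the list was 0.01, with 19 negative and 22 positive values and no gene called in either direction. Within groups the genes had a median coefficient of variation of 8.33% in sgElovl1 and 11.8% in sgNT libraries. All genes tested had 13.2% and 13.3%, and this comparison was not matched for level. sgElovl1 replicates 1 and 2 were pools of 2 tumours each, and the part of pooling in the spread was not tested.

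**Figure D2:**
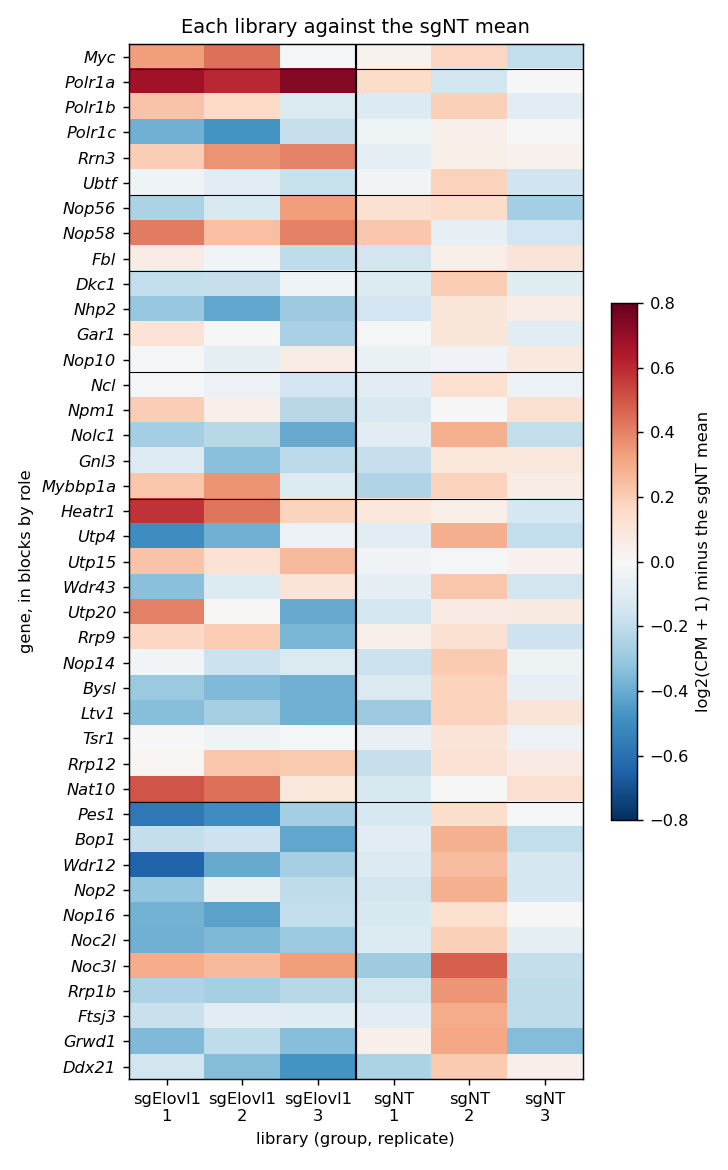
Difference of log2(CPM + 1) in each library (x axis: sgElovl1 replicates left, sgNT replicates right) from the sgNT mean, for each of the 41 genes in blocks by role (y axis). Red is above and blue below that mean, which includes sgNT replicate 2. The column of sgNT replicate 2 is red for 37 of the 41 genes, and those of sgNT replicates 1 and 3 for 7 and 14. The sgElovl1 columns are above the mean for 17, 15 and 11.

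Myc was not called. It had 93.8, 101.4 and 73.9 CPM in sgElovl1 libraries, against 75.9, 83.7 and 64.8 CPM in sgNT libraries (log2 fold change 0.26, SE 0.15, edgeR adjusted p = 0.234). The groups overlapped, since replicate 3 was the lowest of each group and sgElovl1 replicate 3 lay under sgNT replicates 1 and 2. For each replicate number the sgElovl1 library was the higher one, though the numbers are not known to pair. With the replicate block the edgeR adjusted p was 0.131. Once replicate 3 of both groups was left out, the log2 fold change was 0.29 and the adjusted p was 0.047, in a fit that called 15.4% of genes higher and 16.1% lower.

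Among 16 tested genes that partner or control Myc, 2 rose, 1 fell and 13 did not pass the test, with a median of 0.07. Of all genes tested, 8.64% rose and 5.13% fell. Trrap, a scaffold of histone acetyltransferase complexes that Myc recruits, rose to 21.3 ± 2.4 CPM in sgElovl1, against 14.5 ± 1.5 CPM in sgNT libraries (SD, n = 3 each, log2 fold change 0.55, edgeR adjusted p = 0.0328). Mga, a Max-binding repressor, rose with a log2 fold change of 0.76 (edgeR adjusted p = 0.0495). Bin1, a membrane-shaping protein that can bind Myc, fell with a log2 fold change of -0.43 (edgeR adjusted p = 0.0343). Of these 3 genes, none was called with the length offset or once any of sgElovl1 replicates 1 and 2 and sgNT replicate 2 was left out. Max, the obligate partner of Myc, had 34.8, 32.7 and 20.9 CPM in sgElovl1, against 74.7, 42.6 and 20.7 CPM in sgNT libraries, which overlapped (adjusted p = 0.47). Max was named after its values were seen.

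Of 29 tested genes known as Myc targets outside ribosome assembly, 1 rose, 3 fell and 25 did not pass, with a median of -0.28. The fit called 8.64% of all genes higher and 5.13% lower. At an unadjusted p under 0.05, 2 of the 29 were higher and 15 lower, against 17.4% and 14.7% of all genes. DESeq2 called 8 lower (8.67% of all genes), the length offset left 1 lower and 0 higher, and without replicate 3 of both groups 16 were lower and 4 higher (16.1% and 15.4% of all genes). When any of sgElovl1 replicates 1 and 2 and sgNT replicate 2 was left out, Eif4a1 alone was called, and without sgNT replicate 1, 2 were lower and 0 higher. Without sgElovl1 replicate 3 there were 2 higher and 10 lower (11% and 10.1% of all genes). Eif4a1, the RNA helicase of translation initiation, had 552.6, 445 and 475.1 CPM in sgElovl1 libraries, against 876.3, 1130 and 988.3 CPM in sgNT libraries. This was a log2 fold change of -1.02 (SE 0.14, edgeR adjusted p = 0.00203), without overlap. Cct2, a chaperonin subunit, and Cdk4, a kinase of cell cycle entry, fell with log2 fold changes of -0.48 and -0.36 (edgeR adjusted p = 0.017 and 0.0416). Tfrc, the transferrin receptor, rose with a log2 fold change of 0.73 (edgeR adjusted p = 0.0184).

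**Figure D3:**
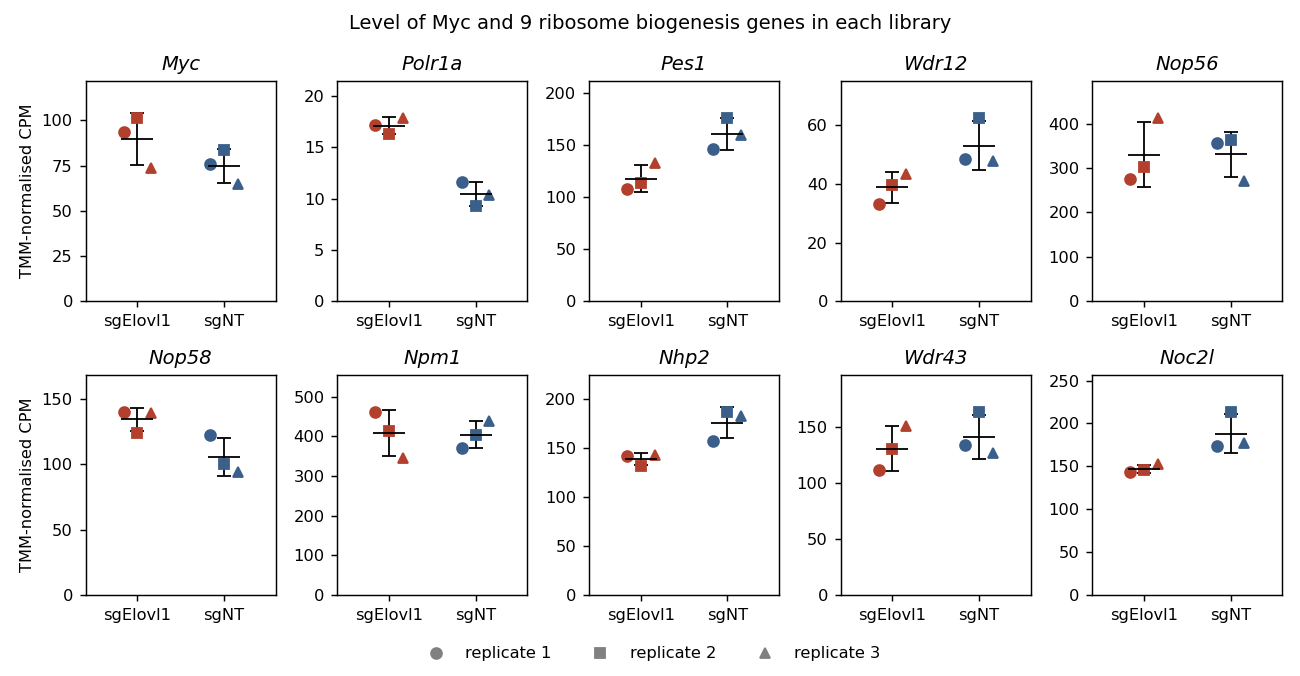
TMM-normalised CPM (y axis, from 0) of Myc and 9 ribosome biogenesis genes in each library, sgElovl1 left and sgNT right in each panel. Symbols mark the replicate number, and horizontal lines with bars are the mean and SD of 3 libraries; Polr1a and Nop58 lie higher in sgElovl1 libraries and Pes1, Wdr12, Nhp2 and Noc2l lower without overlap, while Myc, Nop56, Npm1 and Wdr43 overlap.

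RNA polymerase I and its factors gave values on both sides. Polr1a, the largest catalytic subunit of RNA polymerase I, had 17.2, 16.3 and 17.9 CPM in sgElovl1 libraries, against 11.6, 9.28 and 10.4 CPM in sgNT libraries. The groups did not overlap, and the log2 fold change was 0.72 (SE 0.15, edgeR adjusted p = 0.0141). Polr1a spans bases 71909053 to 71984935 of chromosome 6 (GRCm38, GENCODE M21), and its length in the tables, 3907 bases, puts it among the longest 20% of genes. With an offset for gene length the log2 fold change was 0.44 (adjusted p = 0.0946). Leaving out sgElovl1 replicate 1, sgElovl1 replicate 2 or sgNT replicate 2 gave log2 fold changes of 0.71, 0.75 and 0.65, about as large as with all 6, but with adjusted p of 0.0601, 0.0706 and 0.0661. Polr1c, a subunit that RNA polymerases I and III share and the most abundant of this group in TPM, had 47.6, 44.6 and 54.7 CPM in sgElovl1, against 61, 64.2 and 62.2 CPM in sgNT libraries. These did not overlap either, in the opposite direction to Polr1a, but the gene did not pass (log2 fold change -0.35, SE 0.11, edgeR adjusted p = 0.0637).

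Polr1b, the second large subunit, overlapped between groups (log2 fold change 0.10). Rrn3, which brings RNA polymerase I to the promoter, had 26.4 to 30.5 CPM in sgElovl1 and 21.6 to 23.7 CPM in sgNT libraries, without overlap (log2 fold change 0.33, edgeR adjusted p = 0.0934). Ubtf, the architectural factor of active ribosomal DNA, overlapped (log2 fold change -0.11). Of 12 other RNA polymerase I factors, Ercc6 rose and none fell (3 higher and 2 lower at an unadjusted p under 0.05, and 1 lower with DESeq2). With the length offset 2 were called higher (5.75% of all genes). Without replicate 3 of both groups 1 was higher and 3 were lower (15.4% and 16.1% of all genes). Ercc6, a chromatin remodeller of transcription-coupled repair that also acts at ribosomal DNA, had 26.3, 23.3 and 21.8 CPM in sgElovl1, against 14.3, 10.5 and 13.7 CPM in sgNT libraries (log2 fold change 0.89, edgeR adjusted p = 0.00626), and stayed called on leaving out any 1 library. The call of Ercc6 was lost in the TPM fit (0.92, limma adjusted p = 0.0945). Polr1e, a polymerase subunit and next by p, had a log2 fold change of -0.39 (edgeR adjusted p = 0.0643).

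None of the 7 snoRNP proteins was called by edgeR, with 1 higher and 1 lower at an unadjusted p under 0.05, and DESeq2 called Nhp2 lower. Box C/D snoRNPs guide methylation of the ribosomal RNA, and Nop56 and Nop58 are their paired core proteins around the methyltransferase Fbl. Nop56 had 274.3, 301.6 and 413 CPM in sgElovl1 libraries, against 357.3, 362.9 and 271.2 CPM in sgNT libraries. Its group means were nearly equal (329.7 ± 73.5 and 330.5 ± 51.4 CPM, SD, n = 3 each), but replicate 3 was the highest of sgElovl1 and the lowest of sgNT. Without replicate 3 of both groups Nop56 was called lower (log2 fold change -0.32, edgeR adjusted p = 0.0214), whereas the value over all 6 libraries was -0.004 (adjusted p = 0.991). Nop58 had 140.5, 124.4 and 139.1 CPM in sgElovl1, against 122.2, 100.6 and 94.6 CPM in sgNT libraries. Nop58 did not overlap and did not pass (log2 fold change 0.35, SE 0.13, edgeR adjusted p = 0.0835), but it was called higher with the length offset (0.50, adjusted p = 0.0312). Fbl overlapped, with a log2 fold change of -0.06.

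Box H/ACA snoRNPs convert uridine to pseudouridine, and Nhp2 was the most abundant of their 4 proteins in TPM. Nhp2 had 141.8, 131.4 and 143.3 CPM in sgElovl1 libraries, against 157.8, 187.4 and 182.6 CPM in sgNT libraries. It did not overlap and narrowly missed the threshold (log2 fold change -0.34, SE 0.11, edgeR adjusted p = 0.0643). Dkc1, the pseudouridine synthase, had a log2 fold change of -0.14, and Gar1 and Nop10, its small partners, had -0.04 and -0.01. The last 3 overlapped between groups. With the length offset, 2 of the 4 values were positive.

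The abundant nucleolar proteins showed little difference. Npm1, a histone and ribosome chaperone that shapes the nucleolus, had 462.8, 415 and 346.8 CPM in sgElovl1 libraries, against 370.6, 404.1 and 439.6 CPM in sgNT libraries (log2 fold change 0.01, SE 0.13, adjusted p = 0.962). Its highest and its lowest library were both sgElovl1. Ncl, nucleolin, which binds the precursor RNA, had a log2 fold change of -0.07 and overlapped. Nolc1, a chaperone of snoRNPs, had 63.7 to 72.5 CPM in sgElovl1 and 73.5 to 103.1 CPM in sgNT libraries, without overlap (log2 fold change -0.32, edgeR adjusted p = 0.144). Gnl3, the GTPase nucleostemin, and Mybbp1a, a Myb-binding nucleolar protein, overlapped, with log2 fold changes of -0.22 and 0.16.

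The 12 small subunit factors were split, with 6 negative and 6 positive values and none called by edgeR (2 higher and 2 lower at an unadjusted p under 0.05, and Bysl lower with DESeq2). Wdr43, a processome protein and the most abundant of them in TPM, had 111.2, 130.4 and 150.8 CPM in sgElovl1, against 133.6, 163.8 and 126.9 CPM in sgNT libraries, which overlapped (log2 fold change -0.11, SE 0.14, adjusted p = 0.619). Heatr1 and Utp15, which act early on the nascent precursor, were higher in all sgElovl1 libraries than in any sgNT library. Their log2 fold changes were 0.43 and 0.21 (edgeR adjusted p = 0.094 and 0.216). Both are among the longest 20% of genes, and with the length offset their values were 0.09 and -0.08. Utp4, of the same early complex, went the other way with -0.32 and overlapped. Bysl, bystin, had 38.7 to 41.2 CPM in sgElovl1 and 46.8 to 57.8 CPM in sgNT libraries, without overlap (log2 fold change -0.36, edgeR adjusted p = 0.0638). With the length offset Bysl was called lower (-0.63, adjusted p = 0.0108).

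Ltv1, a late small subunit factor, had a log2 fold change of -0.35 and overlapped by 1 library, as sgElovl1 replicate 2 (66.1 CPM) lay above sgNT replicate 1 (65 CPM). Nat10, the ribosomal RNA acetyltransferase, had 0.37 and overlapped only through sgElovl1 replicate 3 (20.7 CPM) and sgNT replicate 3 (21.3 CPM). The remaining 5, Utp20, Rrp9, Nop14, Tsr1 and Rrp12, overlapped and had log2 fold changes of -0.11 to 0.16. In a list of 44 other small subunit factors, 7 fell, none rose and 37 did not pass, with a median of -0.16. Of all genes tested, 5.13% fell and 8.64% rose. At an unadjusted p under 0.05, 3 of the 44 were higher and 13 lower, against 17.4% and 14.7% of all genes. None was called lower once any of sgElovl1 replicates 1 and 2 and sgNT replicates 1 and 2 was left out (10, 10, 10 and 7 at an unadjusted p under 0.05), and 3 were without sgNT replicate 3. Counts of lower genes were 2 with the length offset (3.48% of all genes) and 3 with the replicate block (4.44%). They were 10 without sgElovl1 replicate 3 (10.1%) and 14 without replicate 3 of both groups (16.1%), with 2 higher in both. Nob1, the endonuclease that makes the final cut of the small subunit RNA, fell to 45.3 ± 0.7 CPM in sgElovl1, against 63.1 ± 6.2 CPM in sgNT libraries (SD, n = 3 each, log2 fold change -0.48, edgeR adjusted p = 0.021). Rrp7a, a processome protein, fell with a log2 fold change of -0.65 (edgeR adjusted p = 0.0219).

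Large subunit factors had the lowest values of the list. Of the 11 genes, Pes1 fell, none rose, and 10 had a negative log2 fold change, with a median of -0.33. All genes tested had 5.13% called lower and 50.4% negative. An unadjusted p under 0.05 was reached by 5 lower and 0 higher of the 11, against 14.7% and 17.4% of all genes. DESeq2 called 4 lower (8.67% of all genes). Calls fell to 0 once any of sgElovl1 replicates 1 and 2 and sgNT replicates 1 and 2 was left out. Summed over the 11, the level was 716.3, 740.9 and 755.5 CPM in sgElovl1 libraries, against 839.3, 1069 and 848.7 CPM in sgNT libraries, without overlap. The median was -0.25 with the length offset, -0.22 in the TPM fit, -0.39 without replicate 3 of both groups and -0.15 without sgNT replicate 2, so its sign held in these fits while its size moved.

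Pes1, Bop1 and Wdr12 form the PeBoW complex, which is needed to process the RNA of the large subunit. Pes1 had 107.6, 113.2 and 132.6 CPM in sgElovl1 libraries, against 146.4, 176.2 and 159.2 CPM in sgNT libraries. The groups did not overlap (log2 fold change -0.45, SE 0.12, edgeR adjusted p = 0.0362). Pes1 spans bases 3963975 to 3980004 of chromosome 11 in the same annotation. The call was lost in the TPM fit (adjusted p = 0.132) and on leaving out any library other than sgElovl1 replicate 3, with adjusted p of 0.0599 to 0.166. It held with the length offset (-0.55, adjusted p = 0.0212). Wdr12 had 33.3, 39.5 and 43.5 CPM in sgElovl1 libraries, against 48.6, 62.5 and 47.7 CPM in sgNT libraries, and narrowly missed the threshold (log2 fold change -0.45, SE 0.14, edgeR adjusted p = 0.0578). Bop1 had a log2 fold change of -0.27 and overlapped, with 97.6 and 99.5 CPM in sgElovl1 replicates 1 and 2 above 97.4 CPM in sgNT replicate 3.

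Noc2l, an export factor of the large subunit precursor and the most abundant of the group in TPM, had 143.4, 145.8 and 152.4 CPM in sgElovl1, against 173.6, 213.9 and 177.3 CPM in sgNT libraries. It did not overlap (log2 fold change -0.36, SE 0.12, edgeR adjusted p = 0.0638), and the length offset called it lower (-0.42, adjusted p = 0.037). Its partner Noc3l was the only one with a positive value (0.28), with 10.2 to 10.7 CPM in sgElovl1 and 6.65 to 12 CPM in sgNT libraries. Nop16 and Rrp1b, factors of large subunit assembly, did not overlap and did not pass. Their log2 fold changes were -0.34 and -0.27 (edgeR adjusted p = 0.0778 and 0.227), and -0.26 and -0.06 without sgNT replicate 2. Ddx21, an RNA helicase of the nucleolus, overlapped with a log2 fold change of -0.34, and with the length offset it was called lower (-0.67, adjusted p = 0.0166). Nop2 and Ftsj3, both methyltransferases of ribosomal RNA, and Grwd1, a chaperone of a ribosomal protein, overlapped, with -0.21, -0.14 and -0.33.

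Of 49 other large subunit factors, 2 rose, 8 fell and 39 did not pass, with a median of -0.26. Of all genes tested, 8.64% rose and 5.13% fell. At an unadjusted p under 0.05, 3 of the 49 were higher and 20 lower, against 17.4% and 14.7% of all genes. None was called lower once any of sgElovl1 replicates 1 and 2 and sgNT replicate 2 was left out (13, 13 and 10 at an unadjusted p under 0.05), and 1 was without sgNT replicate 1. With the length offset 0 were called higher and 1 lower (5.75% and 3.48% of all genes). Without sgElovl1 replicate 3 there were 4 higher and 15 lower (11% and 10.1% of all genes). Without replicate 3 of both groups there were 5 higher and 27 lower (15.4% and 16.1% of all genes). Nvl, an ATPase that remodels the precursor, rose to 51.0 ± 4.5 CPM in sgElovl1, against 35.3 ± 4.4 CPM in sgNT libraries (SD, n = 3 each, log2 fold change 0.53, edgeR adjusted p = 0.0216). Zfp622, a late cytoplasmic factor, fell with a log2 fold change of -0.48 (edgeR adjusted p = 0.0218). Eif6, which keeps the subunits apart until the large one is mature, fell with -0.46 (edgeR adjusted p = 0.0249), and was named after its values were seen. Of 14 exosome and trimming genes, Exosc3, a cap subunit of the RNA exosome, and Mphosph6, an exosome cofactor, fell with log2 fold changes of -0.43 and -0.60 (edgeR adjusted p = 0.0246 and 0.0221), and none rose, also at an unadjusted p under 0.05 and with DESeq2. Neither was called once any of sgElovl1 replicates 1 and 2 and sgNT replicate 2 was left out.

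Calls moved with the gene length offset and with the libraries in the fit. Over all genes, the median log2 fold change was 0.32 in the longest 20% and -0.09 in the shortest 20% by length. Of the 12 listed genes among the longest 20%, which starts at 3352 bases, 9 had positive values, and Ncl, Bysl and Ddx21 had negative ones. Of the 29 shorter genes 5 were positive, namely Myc, Rrn3, Nop58, Npm1 and Rrp9. With the length offset, 1 listed gene was called higher (Nop58) and 4 lower (Pes1, Bysl, Noc2l and Ddx21), in a fit that called 5.75% of all genes higher and 3.48% lower. The share of the list called lower was then 9.76%, and its median was -0.19, against -0.021 over all genes. Without replicate 3 of both groups, 4 genes were called higher (9.76%; Myc, Polr1a, Heatr1 and Nat10) and 11 lower (26.8%), against 15.4% and 16.1% of all genes. The 11 were Pes1, Wdr12, Noc2l, Nop16 and Grwd1 of the large subunit factors, Bysl and Utp4 of the small subunit factors, and Polr1c, Nop56, Nhp2 and Nolc1. DESeq2 on all 6 libraries called Polr1a higher and 7 genes lower (17.1%), against 11.1% and 8.67% of all genes. These 7 were Pes1, Bysl, Noc2l, Polr1c, Nhp2, Wdr12 and Nop16.

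**Figure D4:**
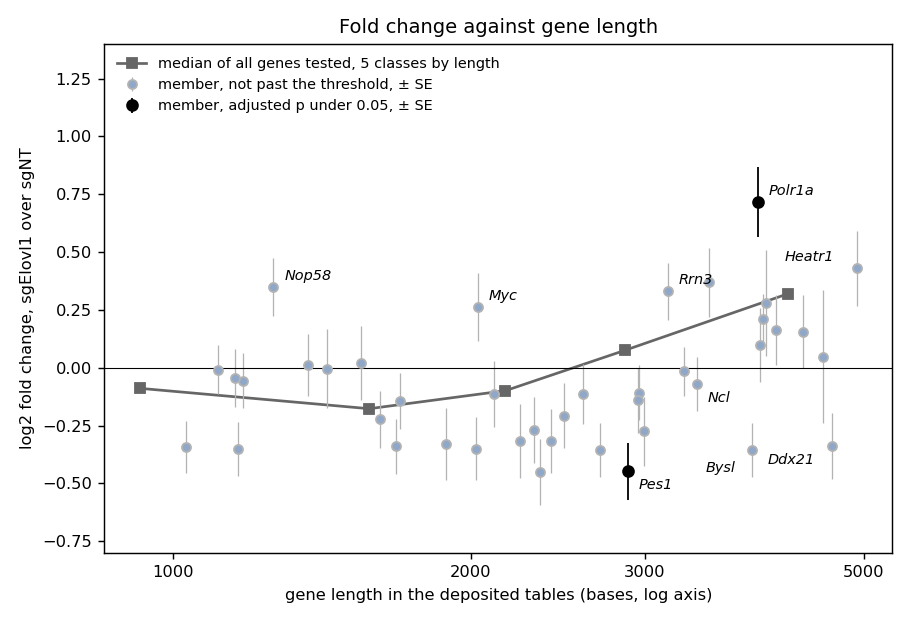
Log2 fold change of sgElovl1 over sgNT (y axis, bars 1 SE) against gene length in bases in the deposited tables (x axis, log scale) for the 41 genes. The grey line joins the medians of all genes tested in 5 equal classes by length; 9 of the 12 longest listed genes lie above 0, with Bysl, Ddx21 and Ncl below it.

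Several of the genes overlap other annotated genes in the genome. In GENCODE M21, 7 of the 41 host 21 snoRNA genes within their bodies, namely Nop56, Nop58, Dkc1, Ncl, Gnl3, Wdr43 and Tsr1, and none of these 7 was called in the fit on all 6 libraries. A gene on the other strand overlapped 18 of the 41, among them Ccnd3 for Bysl and Idh3b for Nop56. The 18 included both called genes, Polr1a (overlapped by Gm26628 and Gm19078) and Pes1 (by 4930556J24Rik). The paper names a strand-specific library service. The strand setting used in counting was not given in the sources used here, so reads of such pairs may not be told apart. Expected counts were not whole for 5 genes, Nop56, Fbl, Bysl, Tsr1 and Noc2l, in all 6 libraries, as happens when reads are divided among genes, and the values of these 5 are uncertain to that extent. The same limit applies to Eif4a1, Cdk4 and Tpt1 of the other lists, not whole in all 6 libraries, and to Rrp7a, not whole in 5.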

How the data were processed

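Bulk RNA of 3 sgElovl1 and 3 sgNT libraries was pre-amplified (SMARTer). Per the submitters' processing notes, the authors used STAR 2.7.7a, RSEM 1.3.1, DESeq2 1.36.0 and mm10. The authors deposited, per gene, expected counts (estimated reads, not scaled), TPM and gene lengths. The annotation release was not given in the sources used here, and symbols and coordinates came from GENCODE M21 (55230 of 55471 IDs matched).

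Expected counts were rounded and tested with edgeR 4.0.16 in R 4.3.3 (filterByExpr, minimum count 10, TMM, robust quasi-likelihood fit, two-sided), with Benjamini-Hochberg adjustment over 12546 genes and a threshold of 0.05. SE values were derived from the test statistic. CPM are TMM-normalised. The steps were tested on simulated data. The members, lists and tests were chosen with earlier results of these data known. All 41 members and Elovl1 were named, with the 2 smallest p of each pathway list and all called genes of lists with 5 or fewer. P-values set the group difference against the spread between these libraries, of which sgElovl1 replicates 1 and 2 pool 2 tumours each.

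Alternatives were DESeq2 1.42.0 and its size factors, limma 3.58.1 (voom, and log2(TPM + 1)), no filter, a gene length offset (lowess trend, span 0.3), a replicate block, and libraries left out. Deviations of same-numbered libraries had correlations of 0.212, 0.245 and 0.405. Across numbers, sgElovl1 replicate 1 with sgNT replicate 2 had 0.169, and sgElovl1 replicate 2 with sgNT replicate 1 had 0.107. Replicate 3 of either group with another number had -0.233 to -0.294. The labels name different mice, so the numbers are not known to pair. The main fit had the group as its only term, and the block was an alternative. With the replicate block the members called were 1 higher and 1 lower.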

Additional observations from a re-analysis of the deposited data

How the results depend on the processing

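Of the results, the Elovl1 difference held under all 15 alternatives (log2 fold change -1.50 to -1.83), with and without the replicate block. The block changed neither call among the 41 genes (1 higher, 1 lower). With it Bin1 was no longer called, and the genes called numbered 3 in place of 7 among other small subunit factors and 4 in place of 1 among snoRNA host genes. The genes called higher numbered 4 without replicate 3 of both groups and 0 to 3 on leaving out 1 library. The genes called lower numbered 7 with DESeq2, 2 with no filter, 0 in the TPM fit, 4 with the length offset, 3 with the length offset and the replicate block, 11 without replicate 3 of both groups, and 0 to 6 on leaving out 1 library. The lowest counts came once any of sgElovl1 replicates 1 and 2 and sgNT replicate 2 was left out (for lower genes also sgNT replicate 1), and the highest without sgElovl1 replicate 3. The median of the 41 genes was -0.11 and moved to -0.003 in the TPM fit, -0.19 with the length offset with or without the block, and between -0.125 and 0.012 on leaving out 1 library, the last without sgNT replicate 2. Of 615 recomputed values of single genes, 35 became called, 11 lost a call and 0 changed sign while called. A further 54, in 19 genes, changed sign with neither value called. Of the exosome and trimming genes, 2 were called lower in the fit on all 6 libraries (5.13% of all genes) and 1 with the length offset (3.48%). There were 7 without replicate 3 of both groups (16.1%) and 7 without sgElovl1 replicate 3 alone (10.1%). Without sgNT replicate 1 or 3 there was 1 (1.34% and 3.29%). There were 0 once any of sgElovl1 replicates 1 and 2 and sgNT replicate 2 was left out. The cause of these shifts was not tested. Without the filter the median of all genes was 0.12, over 22312 genes. The SE of the 41 log2 fold changes ranged from 0.11 to 0.29, with a median of 0.14, so genes that did not pass are not shown to be equal.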

Other observations

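A separate list held host genes of snoRNAs outside the 41, mostly long non-coding RNAs. Of 16 tested, 1 rose, none fell and 15 did not pass, with 1 negative value and a median log2 fold change of 0.55, against -0.004 over all genes. DESeq2 called 5 higher and 1 lower (11.1% and 8.67% of all genes), and edgeR had 6 higher and 1 lower at an unadjusted p under 0.05 (17.4% and 14.7%). None was called once any of sgElovl1 replicates 1 and 2 and sgNT replicates 2 and 3 was left out, where 1, 4, 4 and 5 were higher at an unadjusted p under 0.05, whereas 3 were called without sgNT replicate 1, 4 without sgElovl1 replicate 3 and 4 with the replicate block. Of the 7 host genes among the 41, Nop58 alone had a positive value. Snhg15 had 52.8, 46.8 and 37.2 CPM in sgElovl1, against 33.3, 24 and 19.4 CPM in sgNT libraries, without overlap (log2 fold change 0.84, SE 0.20, edgeR adjusted p = 0.0274). Tpt1, a growth-related protein and the host gene with the next smallest p, had the only negative value, -0.42 (edgeR adjusted p = 0.0558). Gas5 had 185.6, 146.7 and 130.8 CPM in sgElovl1, against 126.4, 82.3 and 111.3 CPM in sgNT libraries, and did not pass (log2 fold change 0.53, edgeR adjusted p = 0.0671). Gas5 was named after its values were seen.

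Stalled ribosome assembly is known to stabilise p53. Of 15 tested genes of the p53 response, 1 rose, 1 fell and 13 did not pass, with a median of 0.12. Of all genes tested, 8.64% rose and 5.13% fell. Aen, a nuclease induced by p53, had 60.2, 62.3 and 64.2 CPM in sgElovl1, against 92.6, 101 and 93.8 CPM in sgNT libraries (log2 fold change -0.62, SE 0.11, edgeR adjusted p = 0.00533). Trp53inp1, another p53 target, rose with a log2 fold change of 0.77 (edgeR adjusted p = 0.0411), a call that was lost with the length offset and once any library other than sgElovl1 replicate 3 was left out. Aen stayed called on leaving out any 1 library. The values of Mdm2 and Cdkn1a, named after they were seen, were 0.13 and 0.36, and neither passed with all libraries. Cdkn1a was called higher in the TPM fit (0.67, limma adjusted p = 0.037). It was also called without sgNT replicate 3 (0.58, edgeR adjusted p = 0.043) and without replicate 3 of both groups (0.57, edgeR adjusted p = 0.0238).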
